A study of Mus musculus with 10 samples.

Results

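The immunoglobulin kappa variable (V) segments of the mouse were described across 5 groups of B-lineage RNA libraries. Members were every gene entry whose symbol starts with Igkv in the deposited table, ordered by their start on chromosome 6, which gave 158 of 46959 gene entries. Of these, 99 are annotated as V genes and 59 as V pseudogenes, and they fall into 20 numbered families. The data are read counts from stranded total RNA libraries made with 500 ng of RNA, in 2 libraries per group. LPS_IL4_SAHA and LPS_IL4 are spleen cells without CD43 from mice called wt, labelled strain 129, kept for 48 h in culture with bacterial lipopolysaccharide (LPS) at 5 µg/ml and with interleukin 4 (IL4) at 20 ng/ml. The growth protocol names BLACK-6 control mice for these cells, so their strain is uncertain. LPS_IL4_SAHA also received SAHA (vorinostat, a histone deacetylase inhibitor), whose dose reads 200 nM in one label and 200 ng/ml in the treatment protocol. The other 3 groups are femoral cells, labelled B cells on a C57BL6 background and lysed without culture. 2KO is not spelled out in the labels, although the design text names mice lacking 2 enhancers of the heavy chain locus, Eµ and the 3′ regulatory region. deltaEmu is, by its name, a deletion of Eµ, and RAG2_deficient lacks RAG2. Mice of all groups were 8 to 10 weeks old, RNA was pooled over mice, and femoral cells of wild-type mice were not analysed here.

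A kappa light chain gene is assembled when the recombinase RAG1/RAG2 joins 1 V segment to 1 of the joining (J) segments that precede the constant gene Igkc. Joining of a V segment on the strand of Igkc deletes the DNA between the pair, whereas joining of a V segment on the opposite strand inverts it. Heavy chain genes are rearranged first in B cell development, and kappa rearrangement is mostly an event of the pre-B cell. V segments that have not been rearranged can be transcribed at a low level, which is called germline transcription. RAG-deficient cells cannot join V to J segments.

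All 158 entries lie on chromosome 6 (mm10), from Igkv2-137, which starts at 67555497, to Igkv3-1, which starts at 70703578. The first lies 3166 kb and the last 18.4 kb from Igkj1, the first joining segment, which starts at 70722562, and Igkc follows at 70726435 to 70726966. Transcription runs on the strand of Igkc in 76 entries and on the opposite strand in 82. In order of position the entries were cut into 4 blocks of 40, 39, 40 and 39, block 1 being farthest from Igkj1. Coordinates of 154 entries equal those of GENCODE vM21. The other 4 entries (Igkv19-93, Igkv12-47, Igkv4-56 and Igkv4-73) pool reads of 2 separate loci under 1 symbol, so that their position, type and level are uncertain.

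V segments of a family resemble each other, and a count can only be as specific as the sequence under it. The 3 pairs below are the segments on which the femoral comparisons turn, each with its closest relative, as the 3′ part of the V exon in GENCODE vM21 (GRCm38, plus strand, 5′ to 3′). Capitals mark the bases at which the 2 members of a pair differ. Igkv14-111 (chr6:68256572-68256869) and Igkv14-126 (chr6:67896345-67896642) differ at 27 of 298 aligned bases.
Igkv14-111: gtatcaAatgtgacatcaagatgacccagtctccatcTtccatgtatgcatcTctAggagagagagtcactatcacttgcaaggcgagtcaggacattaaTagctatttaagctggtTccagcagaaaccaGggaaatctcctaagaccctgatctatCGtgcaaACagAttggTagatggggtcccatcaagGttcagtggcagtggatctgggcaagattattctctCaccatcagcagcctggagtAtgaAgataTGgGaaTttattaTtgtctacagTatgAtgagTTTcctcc
Igkv14-126: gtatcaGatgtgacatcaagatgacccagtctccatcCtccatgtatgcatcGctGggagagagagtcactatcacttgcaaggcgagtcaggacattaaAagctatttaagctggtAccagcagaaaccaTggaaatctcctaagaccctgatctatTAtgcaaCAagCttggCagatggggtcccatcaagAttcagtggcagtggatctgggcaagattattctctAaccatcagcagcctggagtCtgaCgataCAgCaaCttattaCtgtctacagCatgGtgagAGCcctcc
Igkv1-110 (chr6:68270968-68271267) and Igkv1-117 (chr6:68121528-68121827) differ at 10 of 300 bases.
Igkv1-110: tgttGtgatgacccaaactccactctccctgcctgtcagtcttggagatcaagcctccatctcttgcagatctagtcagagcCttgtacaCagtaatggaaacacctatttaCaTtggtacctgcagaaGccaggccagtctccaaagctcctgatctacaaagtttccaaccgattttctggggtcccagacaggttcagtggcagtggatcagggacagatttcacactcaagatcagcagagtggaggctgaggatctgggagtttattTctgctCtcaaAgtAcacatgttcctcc
Igkv1-117: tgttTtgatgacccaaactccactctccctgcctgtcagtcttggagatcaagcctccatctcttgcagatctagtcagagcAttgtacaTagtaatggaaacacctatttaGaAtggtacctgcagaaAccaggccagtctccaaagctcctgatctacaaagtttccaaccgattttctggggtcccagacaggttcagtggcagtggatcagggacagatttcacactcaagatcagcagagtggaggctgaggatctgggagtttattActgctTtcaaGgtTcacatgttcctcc
Igkv1-135 (chr6:67610209-67610508) and Igkv1-133 (chr6:67725362-67725661) differ at 11 of 300 bases.
Igkv1-135: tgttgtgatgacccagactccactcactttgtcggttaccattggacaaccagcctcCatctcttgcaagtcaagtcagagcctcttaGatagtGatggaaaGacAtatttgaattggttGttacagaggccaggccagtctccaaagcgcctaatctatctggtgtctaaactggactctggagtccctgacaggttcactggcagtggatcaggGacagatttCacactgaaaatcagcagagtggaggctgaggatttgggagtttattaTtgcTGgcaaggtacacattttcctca
Igkv1-133: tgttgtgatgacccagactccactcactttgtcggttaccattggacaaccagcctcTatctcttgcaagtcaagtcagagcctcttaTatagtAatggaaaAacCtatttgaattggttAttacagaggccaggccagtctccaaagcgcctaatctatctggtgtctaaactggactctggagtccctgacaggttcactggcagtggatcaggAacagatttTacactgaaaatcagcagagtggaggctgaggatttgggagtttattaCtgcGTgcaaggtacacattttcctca
Over the whole V exon, 152 members could be compared with every other. The median identity to the closest relative was 92.9%, 43 members had a relative at 95% or more, and 0 pairs were identical. How the authors counted reads with several matches is not given in the sources used here, so single segments are uncertain and families less so.

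Total gene counts ran between 17710154 and 25544275 per library. The count columns carry numbers only, and the labels hold 2 numberings that give 8 of the 10 columns different samples. Columns were assigned by the sequencing index that ends each description. That choice was made with the levels of marker genes already known, so marker levels cannot check it independently. If the numbering of the titles is the right one, the comparisons do not hold. For the spleen samples the titles also place SAHA on the opposite libraries, so the sign of each SAHA difference rests on the descriptions. The 12 B cell markers summed to 6823 to 7777 CPM in the 4 spleen libraries and to 256 to 1199 CPM in the 6 femoral libraries, where CPM are counts scaled to a common library size after TMM normalization. The femoral libraries also held 6708 to 20029 CPM of 10 neutrophil markers and 2336 to 15094 CPM of the 9 of 10 erythroid markers in the table. The femoral cells are therefore a mixture, and fewer cells with kappa transcripts cannot be told apart from less kappa RNA per cell.

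Kappa V transcripts were abundant in the spleen cultures and in deltaEmu and nearly absent from 2KO and RAG2_deficient. Summed over the 158 entries, LPS_IL4_SAHA had 806 CPM in pool 4_et_7 and 897 CPM in pool 6_et_8, LPS_IL4 had 1010 and 758 CPM in the same pools, 2KO had 4.49 and 2.66 CPM, deltaEmu had 535 and 729 CPM, and RAG2_deficient had 5.00 and 7.23 CPM. In counts, the 2KO libraries held 96 and 61 kappa V reads, the deltaEmu libraries 11427 and 12985, and the RAG2_deficient libraries 86 and 149. The kappa V sum averaged 3.57 ± 1.30 CPM in 2KO and 632 ± 137 CPM in deltaEmu (SD, n = 2 each), which is 177-fold lower in 2KO. It averaged 6.12 ± 1.58 CPM in RAG2_deficient (SD, n = 2), 1.71 times the 2KO mean. The 2KO libraries lay below both RAG2_deficient libraries, but the nearest libraries of the 2 groups differ by less than the libraries within each group.

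Igkc, which encodes the constant region of every kappa chain, was likewise high in the spleen cultures and deltaEmu and low in 2KO and RAG2_deficient. It reached 1009 and 1059 CPM in LPS_IL4_SAHA, 1196 and 769 CPM in LPS_IL4, 5.19 and 3.48 CPM in 2KO, 582 and 647 CPM in deltaEmu, and 5.23 and 4.61 CPM in RAG2_deficient. Kappa V reads per Igkc read were 0.799 to 0.985 in the 4 spleen libraries, 0.865 and 0.763 in 2KO, 0.919 and 1.13 in deltaEmu, and 0.956 and 1.57 in RAG2_deficient. RAG2_deficient library 3 thus had the most V reads per constant read of the 10.

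The joining segments, each short, had few reads and smaller differences between groups. Igkj5, the joining segment nearest to Igkc, had 10.8 and 8.63 CPM in LPS_IL4_SAHA, 10.5 and 8.36 CPM in LPS_IL4, 0.655 and 0.218 CPM in 2KO, 1.59 and 2.02 CPM in deltaEmu, and 0.349 and 0.485 CPM in RAG2_deficient. Between 2KO and deltaEmu, 3 of the 5 constant and joining genes tested were lower in 2KO, where 1.91% of all genes tested were lower. The 3 were Igkc (log2 -7.15 ± 0.29 SE, adjusted p = 6.7e-05), Igkj3 (-2.52 ± 0.53, 0.0437) and Igkj4 (-3.19 ± 0.49, 0.0132). Between LPS_IL4 and deltaEmu, all 5 joining segments were higher in LPS_IL4 (log2 2.01 to 2.52), where 19.3% of all genes tested were higher. Igkc did not pass (0.67 ± 0.35, adjusted p = 0.164). The 12 B cell markers were all higher in LPS_IL4 as well (median log2 2.73), and their part in these differences was not tested.

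The spleen cultures give the broadest use of the locus. Use of a segment is its share of the kappa V reads of a library after each count is divided by the length of its entry. Of the 99 V genes, 97 had a read in all 4 spleen libraries, and 125 of the 158 entries had a read in at least 1. The effective number of segments (the inverse of the sum of squared shares, which counts how many equally used segments would give the same spread) was 43.0 and 42.4 in LPS_IL4_SAHA and 42.7 and 38.0 in LPS_IL4. Igkv10-96 led in all 4 libraries, with 5.66% and 6.12% of use in LPS_IL4_SAHA and 5.20% and 6.06% in LPS_IL4. Igkv1-117 followed at 4.69% to 5.49%, and Igkv1-135 at 4.12% to 5.88%. The families with the highest use were Igkv1 (13.8% to 17.4% over the 4 libraries), Igkv4 (10.4% to 12.4%) and Igkv6 (10.9% to 11.3%). Igkv4 is the family with the most entries, 31, of which 25 are genes, whereas Igkv6 reaches nearly the same share with 9.

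**Figure D1:**
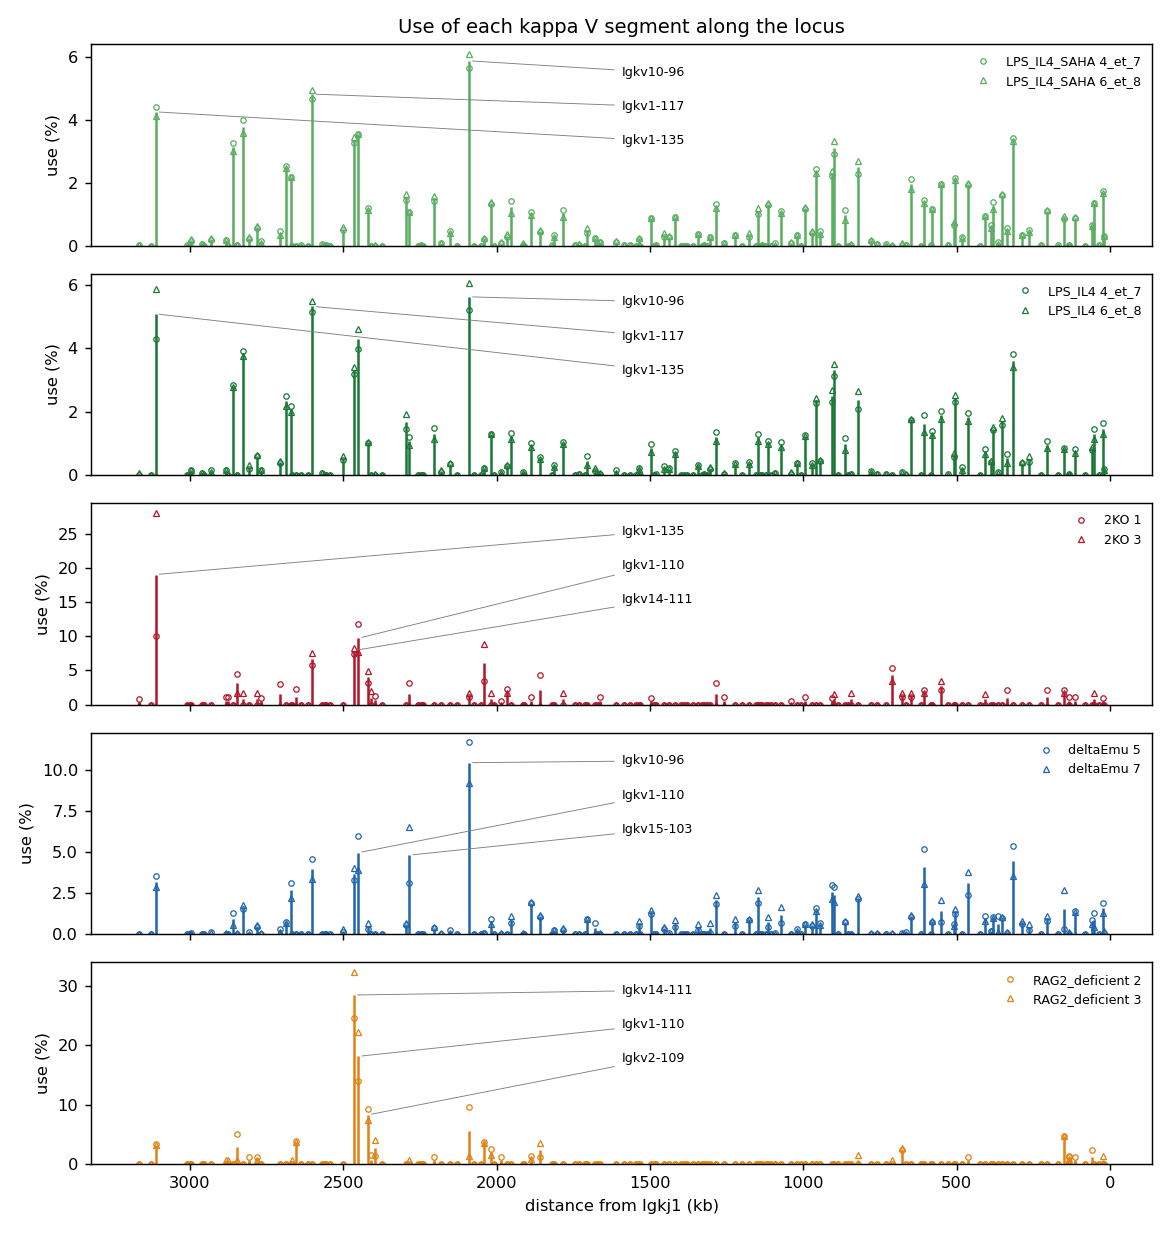
Use of each of the 158 kappa V entries (vertical axes, percent of length-scaled kappa V counts, scales differ between panels) against distance from Igkj1 (kb). Lines are group means and points the 2 libraries of a group, with lines to the names of the 3 highest segments, in order; the spleen and deltaEmu panels have many segments, whereas Igkv14-111 and Igkv1-110 stand out in RAG2_deficient and Igkv1-135 in 2KO.

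No difference in any kappa V segment was detectable between cultures with and without SAHA with 2 libraries per group. Genes were tested with edgeR's quasi-likelihood test, with p-values adjusted by Benjamini-Hochberg over all genes tested and a call at an adjusted p of 0.05. Of the 90 members that passed the filter on low counts, 0 were called between LPS_IL4_SAHA and LPS_IL4 (0% of 13913 genes were called), 0 had an unadjusted p under 0.05, and DESeq2 also called 0. Without the LPS_IL4 library of pool 4_et_7, 2670 of all genes but still 0 members were called. The kappa V sum averaged 852 ± 64.5 CPM in LPS_IL4_SAHA and 884 ± 178 CPM in LPS_IL4 (SD, n = 2 each), a log2 difference of -0.05. That difference was 0.17 without the LPS_IL4 library of pool 4_et_7 and 0.02 without the LPS_IL4_SAHA library of that pool, so its sign rests on single libraries. Fold changes of the 90 members ran between log2 -0.87 for Igkv4-90 and 1.05 for Igkv4-78. Their median was -0.10, against -0.03 over all genes tested.

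The segment with the smallest p, Igkv4-78, had 18 and 18 reads in LPS_IL4_SAHA and 6 and 10 in LPS_IL4 (log2 1.05 ± 0.46 SE, adjusted p = 0.939). These counts are few. Among the highly used segments, Igkv1-110 had 31.0 and 34.6 CPM in LPS_IL4_SAHA and 43.4 and 37.7 CPM in LPS_IL4 (log2 -0.39 ± 0.19, adjusted p = 0.939). Igkv1-135 had 37.7 and 39.2 CPM in LPS_IL4_SAHA and 46.0 and 47.2 CPM in LPS_IL4 (log2 -0.37 ± 0.19, adjusted p = 0.939). Neither segment was called. Across the 158 entries, the correlation of use between any pair of the 4 spleen libraries was 0.984 to 0.994 (Pearson), as a description over segments that share a library.

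deltaEmu also used most of the locus, with more of its use on a few segments. Reads fell on 101 entries in each deltaEmu library, 88 of the 99 V genes had a read in both, and the effective number of segments was 27.5 and 33.5. Igkv10-96 led again, with 11.7% and 9.17% of use, followed by Igkv1-110 (5.97% and 3.93%), Igkv15-103 (3.11% and 6.50%), Igkv6-15 (5.34% and 3.54%) and Igkv8-30 (5.15% and 3.08%). The family order was Igkv4 (12.1% and 17.5%), Igkv1 (15.5% and 11.6%), Igkv6 (11.5% and 11.7%), Igkv10 (12.7% and 9.89%) and Igkv8 (11.3% and 9.68%).

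The 2 deltaEmu libraries differed from each other segment by segment more than the spleen pools did. Of 57 entries with 100 or more reads in the pair, 11 differed in use by over 2-fold between libraries 7 and 5, against 0 of 68 between the LPS_IL4_SAHA pools and 0 of 64 between the LPS_IL4 pools. Igkv4-61 had 95 reads in library 7 and 9 in library 5, and Igkv3-10 had 345 and 39. Igkv8-18 went the other way, with 18 reads in library 7 and 137 in library 5. The chi-square per degree of freedom between the libraries was 19.9 in deltaEmu and 1.60 to 3.94 among the spleen libraries, so each pair differed by more than counting error. A level of a single segment in deltaEmu thus carries a wide spread between pools.

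**Figure D2:**
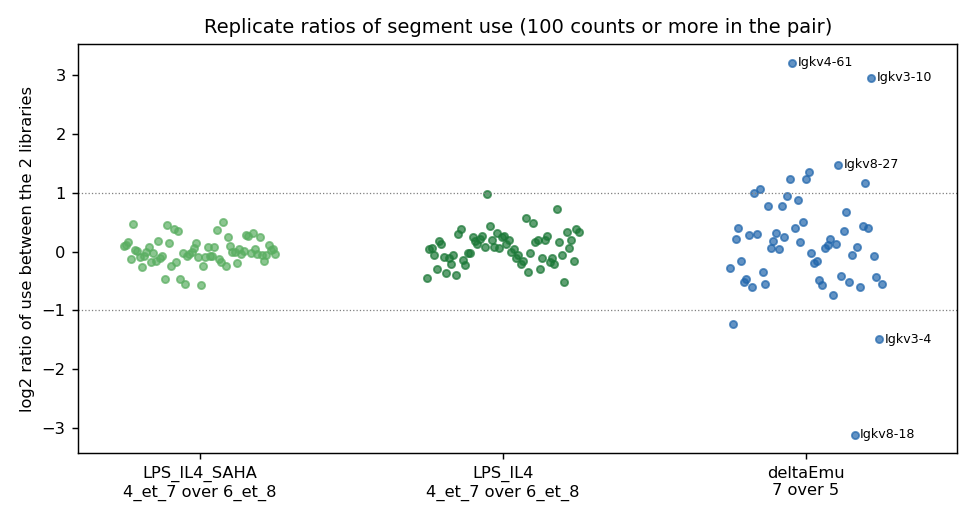
Log2 ratio of use between the 2 libraries of a group (vertical axis), 1 point per entry with 100 or more reads in the pair, for LPS_IL4_SAHA, LPS_IL4 and deltaEmu. Dotted lines mark a 2-fold ratio; 11 of 57 deltaEmu points lie outside them and 0 of the spleen points do, and points beyond log2 1.4 are named.

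Between LPS_IL4 and deltaEmu, segments in all 4 position blocks were higher in LPS_IL4, both Igkv17 genes among them. Tissue, culture, strain label and genotype differ together between these groups and cannot be told apart. The kappa V sum averaged 884 ± 178 CPM in LPS_IL4 and 632 ± 137 CPM in deltaEmu (SD, n = 2 each). The libraries of the 2 groups do not overlap. The nearest, LPS_IL4 pool 6_et_8 at 758 CPM and deltaEmu library 7 at 729 CPM, differ by less than the libraries within each group. Of 86 members that passed the filter, 32 were higher in LPS_IL4 and 1 was lower, where 19.3% of all genes tested were higher and 28.2% lower (47.5% in either direction). By position, 12 of 21 tested entries were higher in block 1, 8 of 20 in block 2, 4 of 20 in block 3 and 8 of 25 in block 4. In place of these 33 calls there were 12 without deltaEmu library 5, 17 without deltaEmu library 7, and 54 without LPS_IL4 pool 4_et_7, of which 38 were higher and 16 lower.

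The largest fold change among these members, that of the pseudogene Igkv4-77, rests on few reads. It had 27 and 15 reads in LPS_IL4 and 0 and 2 in deltaEmu, an 18.9-fold ratio with a 95% counting interval of 4.91 to 161. Igkv8-23-1 had 44 and 28 reads in LPS_IL4 and 0 and 4 in deltaEmu, and was higher in LPS_IL4 (log2 4.01 ± 1.00 SE, adjusted p = 0.0185). Without deltaEmu library 5 neither Igkv4-77 (adjusted p = 0.102) nor Igkv8-23-1 (log2 2.93, adjusted p = 0.0662) was called. The fitted difference of Igkv8-23-1 was 3.32 without LPS_IL4 pool 4_et_7, and without deltaEmu library 7 it has no read left in deltaEmu. Igkv4-92 had 2.89 and 2.20 CPM in LPS_IL4 and 0.141 and 0.224 CPM in deltaEmu (log2 3.77 ± 0.53, adjusted p = 0.00227). These 3 were named only from called segments whose groups do not overlap, so their lack of overlap adds no support. Both genes of the Igkv17 family were higher in LPS_IL4. Igkv17-127 had 27.9 and 20.3 CPM in LPS_IL4 and 6.75 and 3.93 CPM in deltaEmu (log2 2.16 ± 0.34, adjusted p = 0.00335). Igkv17-121 had 24.6 and 16.1 CPM in LPS_IL4 and 3.94 and 4.83 CPM in deltaEmu (log2 2.21 ± 0.31, adjusted p = 0.00219). Igkv15-103 was the 1 member called lower in LPS_IL4, with 12.1 and 7.34 CPM in LPS_IL4 and 16.8 and 47.8 CPM in deltaEmu (log2 -1.74 ± 0.53, adjusted p = 0.0355). Its deltaEmu libraries differ by more than 2-fold from each other. The call was lost without deltaEmu library 7 (log2 -0.92, adjusted p = 0.184) and without LPS_IL4 pool 6_et_8 (-1.41, 0.0611), and the log2 difference was -2.32 without deltaEmu library 5.

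**Figure D3:**
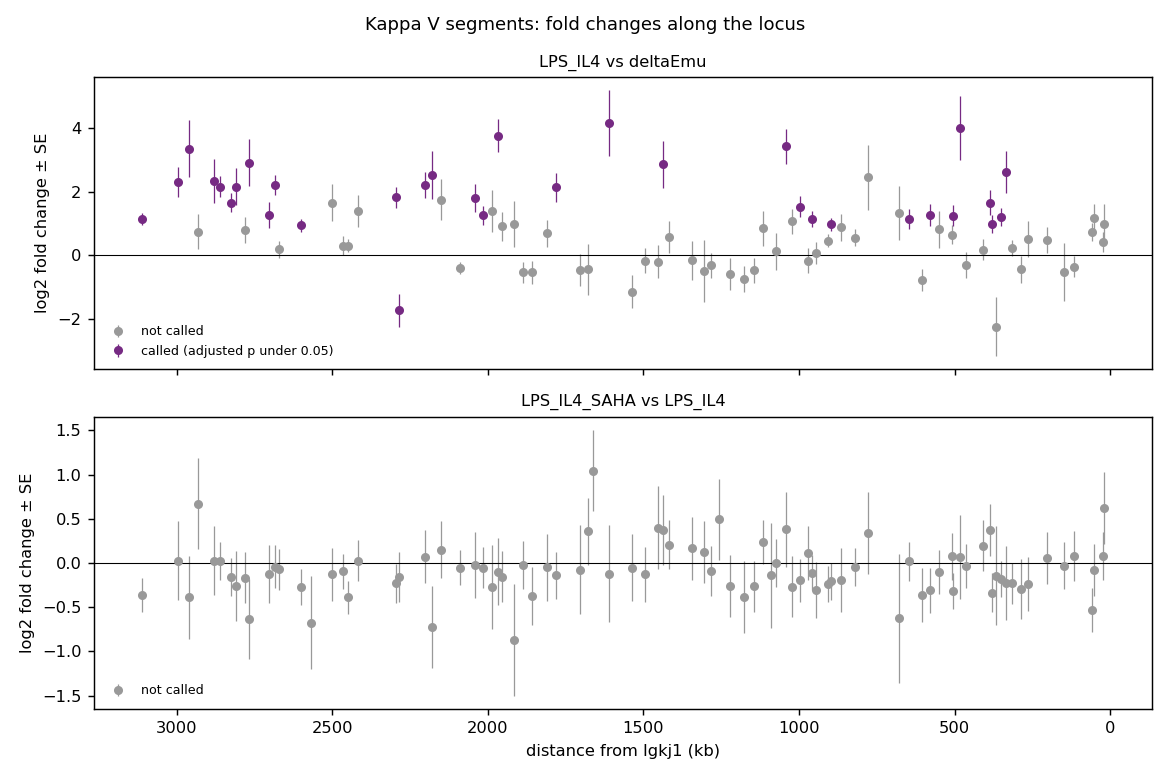
Log2 fold change with SE (vertical axes) of each tested kappa V entry against distance from Igkj1 (kb), for LPS_IL4 over deltaEmu (upper panel) and LPS_IL4_SAHA over LPS_IL4 (lower panel). Purple points were called; the upper panel has 32 higher and 1 lower of 86, and the lower panel has 0 of 90.

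In RAG2_deficient, 3 neighbouring segments took 42 of 86 and 95 of 149 kappa V reads. Reads were found on 24 entries in each library and on 31 in either. Igkv14-111 alone had 21 of 86 and 48 of 149 kappa V reads, which is 24.4% (exact 95% binomial interval 15.8% to 34.9%) and 32.2% (24.8% to 40.4%). Igkv1-110 had 13 and 36 reads, and Igkv2-109 had 8 and 11. These 3 are consecutive in the order of the locus, with starts between 68256389 and 68302427, and they span 46.8 kb at 2419 to 2466 kb from Igkj1. They were set together after their values were seen, so their joint share is a description.

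Together, the 3 took 22.9% and 21.3% of kappa V reads in 2KO, and 48.8% (37.9% to 59.9%) and 63.8% (55.5% to 71.5%) in RAG2_deficient. In LPS_IL4_SAHA they took 8.30% and 8.41%, in LPS_IL4 8.47% and 9.41%, and in deltaEmu 10.1% and 8.92%. The intervals cover counting error only, and reads without molecular identifiers are not independent molecules. The neighbours on either side had fewer reads in RAG2_deficient. Igkv2-112 had 0 and 0 reads, the pseudogene Igkv1-108 had 1 and 0, and the pseudogene Igkv2-107 had 1 and 5. The 3 V exons are not close copies, with identities of 66.5%, 63.9% and 78.9% among themselves.

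In RAG2_deficient, the closest relatives of Igkv1-110 and Igkv14-111 had no read. Igkv1-117, which differs from Igkv1-110 at the 10 capitals printed above, had 0 and 0 reads in RAG2_deficient, against 13 and 36 for Igkv1-110. The exact 95% intervals of these counts of 0 reach up to 4.20% and 2.45% of kappa V reads in those libraries. Igkv14-126, the relative of Igkv14-111, also had 0 and 0. In the 4 spleen libraries, Igkv1-117 had 951 to 1149 reads and Igkv14-126 had 648 to 721.

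In 2KO, Igkv1-135 had the most reads when both libraries are summed, and most of its reads came from library 3. Reads were found on 38 and 24 entries, 47 in either, and 24 of these also had a read in RAG2_deficient, which is 51.1% of the 2KO entries and 77.4% of the RAG2_deficient entries. Igkv1-135, at 3112 kb from Igkj1 near the far end of the locus, had 10 of 96 and 18 of 61 reads in 2KO, which is 10.4% (5.11% to 18.3%) and 29.5% (18.5% to 42.6%). It had 3 of 86 and 5 of 149 reads in RAG2_deficient, 3.49% (0.725% to 9.86%) and 3.36% (1.10% to 7.66%). Its relative Igkv1-133 had 0 reads in all 4 of these libraries. Igkv1-110 had 12 and 5 reads in 2KO, Igkv14-111 had 7 and 5, and Igkv1-117 had 6 and 5.

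**Figure D4:**
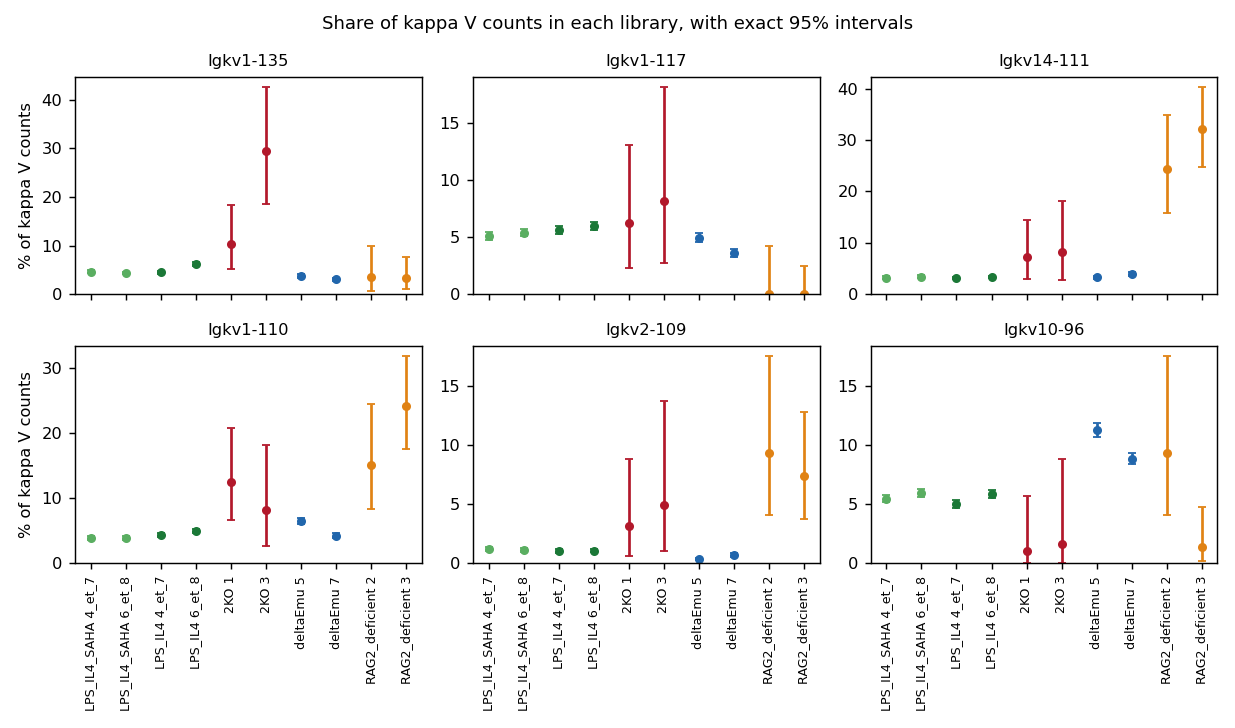
Share of kappa V reads (vertical axes, percent) taken by each of 6 segments in each of the 10 libraries, with exact 95% binomial intervals as bars. Igkv14-111 took 24.4% and 32.2% of reads in RAG2_deficient and Igkv1-135 took 29.5% in 2KO library 3, while Igkv1-117 had 0 reads in RAG2_deficient.

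In the test across all genes, 65 members passed the filter in the femoral libraries. A member that passed only through deltaEmu, where kappa V reads are many, had to differ from the other groups, so the counts of calls against deltaEmu are given without weight. Between 2KO and RAG2_deficient, 1 member was higher in 2KO and 1 was lower, where 1.26% of all genes were higher and 3.05% lower (4.31% in either direction). Taking both directions together, members were thus not called more often than genes at large. Igkv1-117 was the higher one, with 6 and 5 reads in 2KO and 0 and 0 in RAG2_deficient, at least 1.56-fold higher at a floor of 3 counts per library (adjusted p = 0.0401). These reads lie under the minimum count of 10, so it passed the filter through its 568 and 470 reads in deltaEmu. The 3 groups shared 1 fit, so its p-value rests on the spread in deltaEmu as well. Igkv14-111 was the lower one, with 0.328 and 0.218 CPM in 2KO and 1.22 and 2.33 CPM in RAG2_deficient, 6.51-fold lower (log2 -2.71 ± 0.52 SE, adjusted p = 0.0334). Neither Igkv1-135 (log2 1.54 ± 0.46, adjusted p = 0.111) nor Igkv1-110 (-1.72 ± 0.53, 0.117) was called. Both calls were lost when any 1 of 5 of the 6 femoral libraries was left out (adjusted p up to 0.132 for Igkv1-117 and 0.196 for Igkv14-111) and held only without RAG2_deficient library 2. Genes of early B cells moved with this comparison: 6 of 10 pro-B and pre-B cell genes were lower in 2KO, and their sum was 666 to 1068 CPM in 2KO and 2768 to 3065 CPM in RAG2_deficient. Other marker lists moved too: 3 of 12 B cell and 1 of 12 plasma cell genes were lower in 2KO, and 4 of 9 tested erythroid genes were higher. Of 10 T and NK cell genes 1 was higher and 1 lower, and 0 of 10 neutrophil genes were called. The B cell genes summed to 379 and 256 CPM in 2KO and 1155 and 1199 CPM in RAG2_deficient. The part of these marker genes in the result was not tested.

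Between 2KO and deltaEmu, 64 of the 65 members were lower in 2KO and 0 were higher, where 1.91% of all genes were lower and 1.79% higher (3.7% in either direction). Igkv8-18 missed the threshold (adjusted p = 0.0583). Without deltaEmu library 7, 32 members were called. Igkv6-15, with 569 and 429 reads in deltaEmu, had 0 and 0 in 2KO, at least 187-fold lower. The segments with the most reads in 2KO are given for their levels, since they were picked by those reads. Igkv1-135 had 0.468 and 0.784 CPM in 2KO and 19.9 and 22.3 CPM in deltaEmu, 33.8-fold lower (log2 -5.06 ± 0.31, adjusted p = 0.000295). Igkv1-110 was 83.9-fold lower in 2KO (log2 -6.39 ± 0.46, and -7.19 without 2KO library 1), Igkv14-111 was 85.2-fold lower and Igkv1-117 was 106-fold lower. Igkv2-109, seventh by use in 2KO, was 25.8-fold lower, at 0.140 and 0.131 CPM in 2KO and 1.87 and 5.11 CPM in deltaEmu (log2 -4.62 ± 0.66, adjusted p = 0.00977). That call was lost without 2KO library 3 or without deltaEmu library 7 (log2 -3.75).

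Between deltaEmu and RAG2_deficient, all 65 members that passed were higher in deltaEmu, where 4.42% of all genes were higher and 5.39% lower (9.81% in either direction). The 3 consecutive segments had been picked by their RAG2_deficient reads, so their folds describe that choice. Igkv2-109 was 6.99-fold higher in deltaEmu (1.87 and 5.11 CPM in deltaEmu, 0.465 and 0.534 CPM in RAG2_deficient, adjusted p = 0.0225), a call lost without deltaEmu library 7 (log2 1.90) or without RAG2_deficient library 3. Igkv14-111 was 13.1-fold and Igkv1-110 26.1-fold higher, Igkv10-96 was 222-fold higher, and Igkv1-117 was at least 166-fold higher. The log2 difference of Igkv10-96, with 8 and 2 reads in RAG2_deficient, was 7.83, and it was 9.25 without RAG2_deficient library 2 and 7.04 without RAG2_deficient library 3. That of Igkv1-110 was 4.67, and 5.41 without RAG2_deficient library 3. Cell type markers moved too. In 2KO against deltaEmu, 6 of 12 B cell and 3 of 12 plasma cell genes were lower and 9 of 9 tested erythroid genes were higher. The B cell genes summed to 379 and 256 CPM in 2KO and 813 and 1087 CPM in deltaEmu, and the plasma cell genes to 344 and 307 CPM in 2KO and 816 and 987 CPM in deltaEmu. In deltaEmu against RAG2_deficient, 6 of 12 B cell genes were higher and 1 was lower, 3 of 12 plasma cell genes were higher and 1 was lower, 5 of 10 neutrophil genes were higher, and 6 of 10 pro-B and pre-B cell genes were lower. Of 10 T and NK cell genes 4 were higher and 2 lower, and 1 of 9 tested erythroid genes was lower. The part of all these marker genes in these differences was not tested.

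By position, use was spread over the locus in spleen and deltaEmu. In the libraries with few reads block 1, farthest from Igkj1, took most of it, in good part through a few segments picked by their high values. Block 1 took 34.3% and 34.0% of use in LPS_IL4_SAHA, 34.3% and 37.0% in LPS_IL4, 57.2% and 63.9% in 2KO, 29.6% and 28.9% in deltaEmu, and 66.3% and 77.1% in RAG2_deficient. Block 3, which holds 17 of the 31 Igkv4 entries, took 20.8% and 21.7% in LPS_IL4_SAHA, 20.8% and 20.8% in LPS_IL4, 6.38% and 3.39% in 2KO, 19.4% and 22.4% in deltaEmu, and 0% and 1.43% in RAG2_deficient. The 2KO and RAG2_deficient libraries do not overlap the other groups in either block. In RAG2_deficient, Igkv14-111 alone took 24.6% and 32.4% of use, Igkv1-110 14.0% and 22.3%, and Igkv2-109 9.22% and 7.31%, all in block 1. In 2KO, Igkv1-110 took 11.8% and 7.66%, Igkv14-111 7.48% and 8.35%, and Igkv2-109 3.15% and 4.93%. Igkv1-135, also in block 1, took 9.98% and 28.1% in 2KO. Block 3 of RAG2_deficient library 3 held 2 reads, both of Igkv5-39. Block 3 of 2KO library 3 held 1 read each of Igkv12-40 and Igkv5-43. The block shares were not recomputed without the named segments, so a trend along the locus beyond them was not tested. Block 4, nearest to Igkj1, averaged 28.0 ± 0.66% in LPS_IL4_SAHA, 27.8 ± 1.6% in LPS_IL4, 19.2 ± 3.4% in 2KO, 29.5 ± 0.29% in deltaEmu and 12.6 ± 2.3% in RAG2_deficient (SD, n = 2 each).

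By strand, segments oriented like Igkc took 46.3% and 46.1% of use in LPS_IL4_SAHA, 46.0% and 47.6% in LPS_IL4, 67.2% and 76.2% in 2KO, 39.6% and 38.7% in deltaEmu, and 80.7% and 87.5% in RAG2_deficient. Strand and position are not separate here, since 34 of the 40 entries of block 1 lie on the strand of Igkc, against 9 of the 40 of block 3. Igkv14-111, Igkv1-110, Igkv2-109 and Igkv1-135, named above for their high use, all lie on the strand of Igkc. The strand shares were not recomputed without them, so a difference by strand beyond these segments was not tested.

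**Figure D5:**
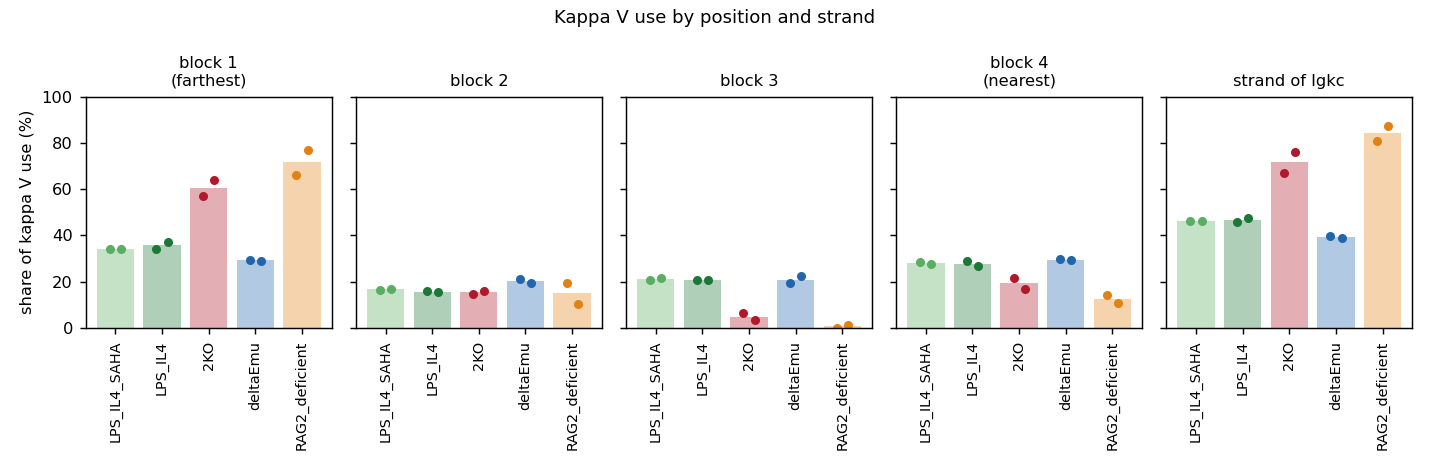
Share of kappa V use (vertical axis, percent) in 4 position blocks and on the strand of Igkc, by group. Bars are means and points the 2 libraries; block 1 takes 57.2% and 63.9% in 2KO and 66.3% and 77.1% in RAG2_deficient, against 28.9% to 37.0% in the other 6 libraries.

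By family, Igkv1 took 40.4% and 48.8% of use in 2KO, 15.5% and 11.6% in deltaEmu, and 19.9% and 29.6% in RAG2_deficient. Igkv14 took 14.3% and 11.8% in 2KO, 5.41% and 6.43% in deltaEmu, and 34.6% and 36.8% in RAG2_deficient, most of it from Igkv14-111. Igkv2 took 5.19% and 4.93% in 2KO, 0.547% and 1.07% in deltaEmu, and 10.6% and 11.3% in RAG2_deficient. Most of the Igkv1 and Igkv2 use in RAG2_deficient came from Igkv1-110 (14.0% and 22.3%) and Igkv2-109 (9.22% and 7.31%). In 2KO library 3, Igkv1-135 alone took 28.1% of use. The family shares thus largely repeat the segments named above. The Igkv4 family had 9 and 1 reads in 2KO, 1370 and 2261 in deltaEmu, and 0 and 0 in RAG2_deficient. The Igkv6 family had 1 and 1 reads in 2KO, 1265 and 1477 in deltaEmu, and 1 and 0 in RAG2_deficient.

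A few entries did not follow the level of the locus. Igkv10-95 had 39 and 44 reads in LPS_IL4_SAHA, 35 and 42 in LPS_IL4, 3 and 5 in 2KO, 10 and 10 in deltaEmu, and 3 and 5 in RAG2_deficient. It made up 0.0938% and 0.0824% of use in deltaEmu but 3.40% and 8.85% in 2KO and 3.73% and 3.58% in RAG2_deficient. Igkv1-35 had 0 and 1 reads in LPS_IL4_SAHA, 0 and 1 in LPS_IL4, 5 and 2 in 2KO, 3 and 6 in deltaEmu, and 0 and 1 in RAG2_deficient. Its reads in 2KO are thus close in number to those in deltaEmu, which has far more kappa V reads. These entries were named by their values, with no test.

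Pseudogene entries showed the same kind of exception. They took 1.32% and 1.46% of kappa V reads in LPS_IL4_SAHA, 1.24% and 1.14% in LPS_IL4, 11.5% and 4.92% in 2KO, 1.08% and 1.37% in deltaEmu, and 11.6% and 9.40% in RAG2_deficient. The shares rest on only 11 and 3 pseudogene reads in 2KO and 10 and 14 in RAG2_deficient. Most pseudogene reads of deltaEmu and spleen were those of Igkv12-47, the entry that pools 2 loci, with 109 and 154 in deltaEmu and 0 in every 2KO and RAG2_deficient library. Igkv14-118-2 had 2 and 0 reads in the 2KO libraries, 2 and 2 reads in the deltaEmu libraries, 3 and 5 reads in the RAG2_deficient libraries, and 0 in all 4 spleen libraries. Igkv14-126-1 had 4 and 1 reads in the 2KO libraries, 2 and 12 reads in the deltaEmu libraries, 4 and 1 reads in the RAG2_deficient libraries, and 1 to 3 in those of spleen. Of the 158 entries, 30 had no read in any library, and all 30 are pseudogenes.

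Few other genes at the locus were read, and few regulators were called among the femoral groups. Of 52 other genes that start inside the locus, 31 had no read and only Gm42543 and Rn7s6 reached 10 reads in a library. Of 20 genes chosen as regulators of the kappa locus, 1 was lower in 2KO than in deltaEmu and 0 were higher. Over all genes tested, 1.91% were lower and 1.79% higher. The 1 regulator was Irf4, a transcription factor that binds the kappa enhancers (log2 -1.10 ± 0.20 SE, adjusted p = 0.0245). Pax5 and Ebf1, factors that fix B cell identity, were lower in 2KO than in RAG2_deficient, by log2 -1.49 ± 0.31 (adjusted p = 0.0419) and -1.62 ± 0.36 (0.0490). They were 2 of the 20, where 3.05% of all genes tested were lower. Between deltaEmu and RAG2_deficient, Pax5, Ebf1, Foxo1 and Blnk were lower in deltaEmu and 0 of the 20 were higher. There, 5.39% of all genes tested were lower and 4.42% higher. With so few calls, the regulators were not told apart from genes at large. Between LPS_IL4 and deltaEmu, 7 of 20 were higher in LPS_IL4 and 1 was lower, where 19.3% of all genes tested were higher and 28.2% lower. Between LPS_IL4_SAHA and LPS_IL4, 0 of 20 were called.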

How the data were processed

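The deposited table holds raw counts, 1 whole number for each gene and library. The submitters' processing notes name STAR 2.4.0a, Subread 1.4.6-p1 (featureCounts) and the builds mm10 and GRCm38. Neither the strand setting nor the rule for multiply mapped reads is given in the sources used here. The 100 control entries were left out. Columns were read by sequencing index. Tests used edgeR 4.0.16 under R 4.3.3 (filterByExpr with a minimum count of 10, TMM, quasi-likelihood F tests, Benjamini-Hochberg adjustment). The 6 femoral libraries formed 1 fit, the 4 spleen libraries another, and LPS_IL4 with deltaEmu one more, without covariates. Nothing says that pools are independent beyond their labels, so p-values measure only the spread between these libraries. With 2 libraries a group, no exact permutation test can pass 0.05, and none was run. DESeq2 1.42.0 was an alternative. The steps were tested on simulated counts.

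The pools 4_et_7 and 6_et_8 occur in both spleen cultures, and the labels do not say whether these are the same animals. Deviations of same-numbered pools correlated at -0.442 over 13913 genes, so the numbers were not used as pairs in the test reported.

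Members and gene lists were chosen with earlier results of these data known. Named segments are the 6 most used in LPS_IL4_SAHA, LPS_IL4 and deltaEmu, the 5 most used in 2KO and RAG2_deficient, up to 4 called segments per direction and comparison (largest changes first, groups without overlap), the first and last by position, and those on which a family or block total rests. Other segments were named after their values were seen. Gene types and sequences come from GENCODE vM21.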

Additional observations from a re-analysis of the deposited data

How the results depend on the processing

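Counts of called members stayed within 1.5 times under RLE size factors, TMM without immunoglobulin genes and DESeq2, and without a filter on low counts, except that 4 members were called between 2KO and RAG2_deficient without the filter, against 2. Leaving out 1 library at a time gave 32 to 68 calls between 2KO and deltaEmu, 0 to 3 between 2KO and RAG2_deficient, 48 to 70 between deltaEmu and RAG2_deficient, 0 in every case between LPS_IL4_SAHA and LPS_IL4, and 12 to 54 between LPS_IL4 and deltaEmu. Fits that leave a group with 1 library assume that it varies like the others. The log2 difference of the kappa V sum between LPS_IL4_SAHA and LPS_IL4 ran between -0.25 and 0.17 over these fits, and the cause was not tested. The other 4 sums kept their sign under all settings run. With the pool as a replicate block, and with the pairing crossed (added after the data were seen), 0 members were called between LPS_IL4_SAHA and LPS_IL4. Of the named segments, 0 reversed a called direction under any setting run. Shares of use by block and strand moved by at most 2.70 percentage points when raw counts replaced length-scaled counts or pseudogenes were left out. The 2KO and RAG2_deficient libraries, with 61 to 149 kappa V reads each, set the limit. At the floor of 3 counts per library, a segment with no read there may still hold 2.01% to 4.92% of kappa V reads. The exact 95% intervals used above for RAG2_deficient are wider, reaching 4.20% and 2.45% where this floor gives 3.49% and 2.01%.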
